A study of Arabidopsis thaliana with 12 samples.

Results

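Root messenger RNA of Arabidopsis thaliana Col-0 was compared between roots kept in arsenate, As(V), for 6 h and roots kept in As(V) for 1.5 h. The genes described are all those with at least 1 FPKM (a read count divided by gene length and library size) in at least 2 of the 4 As(V) libraries of these times, 18474 of the 33557 genes in the files. Of these, 17554 also had at least 10 estimated reads in at least 2 of the 4 libraries and were tested. The other 920 were not: 54 had no usable estimate of reads and 866 had too few. At the edge of the 1 FPKM minimum, 207 genes kept had a second-highest value under 1.1 FPKM and 215 genes left out had one of 0.9 FPKM or more. Through the 6 h libraries alone 272 genes passed the minimum, and 516 passed through the 1.5 h libraries alone.

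All groups came from wild-type seedlings with no transgene or mutation, grown 7 days on 1 mM phosphate and then 2 days without phosphate, so that the mock roots too were short of phosphate. Roots were then kept in liquid medium without phosphate that held 30 µM As(V), for 6 h or 1.5 h, or held no As(V) (mock), for 6 h or 1.5 h. Each group had 2 libraries of stranded messenger RNA read at 50 bases from a single end, each from 60 pooled seedlings. The labels do not say that replicates were separate cultures, so p-values here measure only the spread between these samples.

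Arsenate resembles phosphate and enters roots through phosphate transporters. Inside the cell it is reduced to arsenite, which binds sulfur groups of proteins. Glutathione, made with sulfur from sulfate, is the building block of phytochelatins, peptides that chelate arsenite and are carried with it into the vacuole. Damaged proteins are refolded by heat shock proteins or broken down by the 26S proteasome and by autophagy.

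Depth, estimated from steps in the deposited values, was 12.58 to 15.64 M reads in genes over the 12 libraries. A single read added 0.0453 to 0.1236 FPKM to a gene of 1500 bases, depending on the library. Marker genes of each root cell type were found at both As(V) times, though not every marker. In As(V) at 6 h, 8 of 10 xylem and 4 of 7 root cap and stem cell niche markers reached 1 FPKM in both libraries. In mock at 6 h 10 and 6 did. Summed over 15 root hair genes, the levels were 431 and 475 FPKM in As(V) at 6 h and 576 to 610 FPKM in As(V) at 1.5 h, with RSL1, a hair factor, listed at 0 at both times. In mock the same sums were higher, 1580.5 to 1697 FPKM at 6 h and 1503 to 1736 FPKM at 1.5 h. Shoot markers summed to 112 to 118 FPKM in As(V) at 6 h, and to 72.4 FPKM in 1 and 316 FPKM in the other As(V) library of 1.5 h. None of the 8 shoot markers tested was called between the As(V) times.

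Most genes tested differed between the As(V) times. In As(V) roots 9676 of the 17554 genes differed between 6 h and 1.5 h at an adjusted p under 0.05 (limma with Benjamini-Hochberg adjustment, on log2(FPKM + 1)), which is 55.1% of the genes tested. Of these, 5734 were higher at 6 h (32.7%) and 3942 lower (22.5%). Changes over 2-fold were called for 2264 genes higher and 1254 lower, and changes over 4-fold for 373 higher and 190 lower. The log2 scale with 1 FPKM added understates changes of genes near 0.

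Fewer genes differed between the same times in mock. In mock roots the same test called 3908 genes between 6 h and 1.5 h (22.3%), 1735 higher (9.88%) and 2173 lower (12.4%). Over 2-fold these were 141 higher and 310 lower. The mock counts were less stable than those in As(V): without mock 6 h replicate 1, mock 6 h replicate 2 or mock 1.5 h replicate 2 they were 816, 801 and 789 higher with 1229, 1164 and 1377 lower, and without mock 1.5 h replicate 1 they were 1023 higher and 1707 lower.

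The As(V) change was then tested against the mock change of the same gene, as the difference of the differences. This difference was called for 8691 genes (49.5%), 5203 with a higher (29.6%) and 3488 with a lower (19.9%) change in As(V). Both tests were passed by 4675 genes that were higher at 6 h in As(V) (26.6%) and 2848 that were lower (16.2%). Of the genes higher in As(V), 75.3% were not called in mock, 8.0% were higher there and 16.7% lower. Of the genes lower in As(V), 72.9% were not called in mock, 13.4% were lower there and 13.7% higher. The As(V) and mock comparisons share no libraries.

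**Figure D1:**
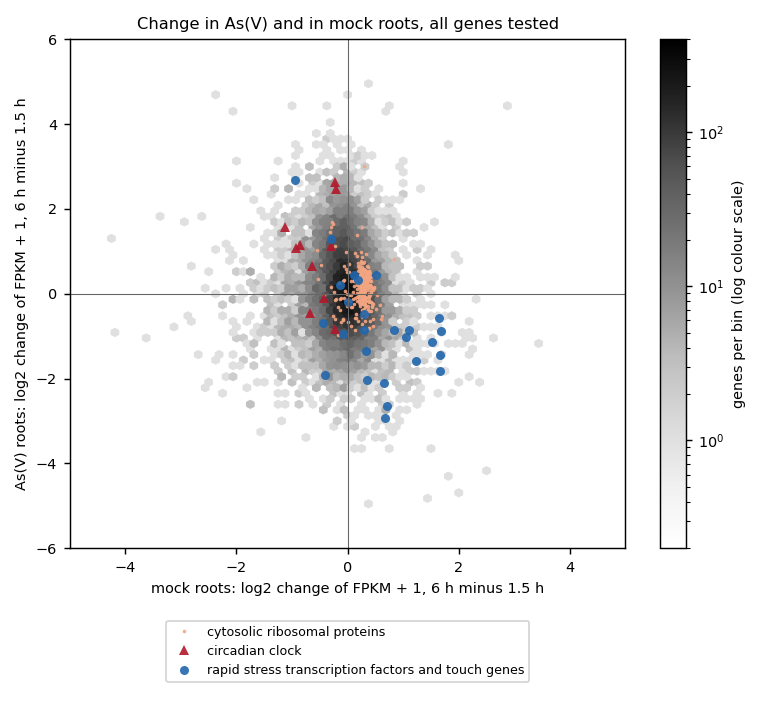
Change between 6 h and 1.5 h in As(V) roots (vertical, log2 of FPKM + 1) against the change in mock roots (horizontal), as the number of tested genes per bin on a log grey scale, with 3 lists drawn as points. Clock genes lie mostly high and left (medians 1.104 in As(V) and -0.53 in mock), rapid stress factors low and right (-0.88 and 0.44), and ribosomal proteins near both zeros (0.15 and 0.27).

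The plot of the As(V) change against the mock change shows a cloud taller than it is wide: As(V) changes reached 4.93 in either direction. Its centre lies near 0 on both axes, with a median over all genes tested of 0.03 in As(V) and -0.01 in mock.

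The balance of rises and falls depends on the scaling. In the deposited values the library size behind the scaling was 0.445 and 0.461 of the estimated reads in genes in As(V) at 6 h, 0.641 and 0.656 in As(V) at 1.5 h, and about 1 in mock. When each library was scaled to its total reads instead, the median gene fell by 0.40 between the As(V) times, and 2932 genes were called higher and 8335 lower. All of those 2932 were also higher in the deposited scaling, 339 of the 5734 turned to lower calls, and 3938 of the 3942 lower calls were kept. With median-of-ratios scaling the counts were 5529 higher and 4170 lower. A rise below therefore means a rise relative to the typical gene. Counts with library totals are given beside the lists whose direction they change. Each count of a list is to be read beside the shares over all genes tested. These were 32.7% higher and 22.5% lower in As(V), and 9.88% higher and 12.4% lower in mock.

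**Figure D2:**
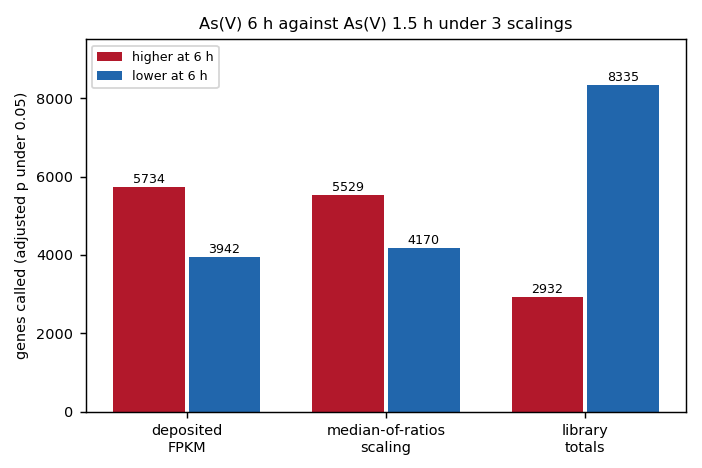
Number of genes called higher (red) and lower (blue) at 6 h than at 1.5 h of As(V) under 3 scalings of the same values, by limma at an adjusted p under 0.05. The deposited scaling gave 5734 higher and 3942 lower, median-of-ratios scaling 5529 and 4170, and library totals 2932 and 8335.

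The 15 highest changes lay between 3.64 and 4.93. CLPC1, the chaperone subunit of the plastid Clp protease (chromosome 5, 20715453 to 20720681, in the TAIR10.1 annotation), had 1385 and 1291 FPKM in As(V) at 6 h, against 103 and 110.2 FPKM in As(V) at 1.5 h. It had 85.4 and 83.7 FPKM in mock at 6 h and 99.99 and 105 FPKM in mock at 1.5 h. All libraries of As(V) at 6 h thus stood far above the rest, and the change of 3.64 ± 0.10 (log2, SE) had an adjusted p of 1.2e-10 (limma). ENA rose most: it had 128 and 151 FPKM in As(V) at 6 h, against 3.63 and 3.58 FPKM in As(V) at 1.5 h. Its change was 4.93 ± 0.29, and mock roots held 4.27 to 6.44 FPKM at both times.

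The 15 highest also took in ALB4, a protein insertase of the thylakoid membrane (3.73), NRT2.7, a nitrate transporter (4.39), SRO3 (4.37), the phospholipase gene pPLAIIIbeta (3.71), AT2G29670 (4.28), AT5G62580 (3.72), AT5G16980 (4.70), SCPL7 (3.75) and AT2G13960 (4.03). The last shares 32.8% of its exon windows of 50 bases with other places in the genome. AT3G04854 (4.24) rests on few reads and lost its call without precision weights. AT2G37480 (4.74) had 162 and 133 FPKM in As(V) at 6 h and 0 and 29.2 FPKM in As(V) at 1.5 h, and its call was lost when any of these libraries was left out. AT2G38350 (4.42) overlaps DREB19 on the other strand, and AT1G26911 (3.73) lies next to RPL10B, a ribosomal protein gene that rose by 3.01. Whether the counting used strand is not given in the sources used here, so reads of overlapping genes may have been shared.

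Genes of glutathione, phytochelatin and vacuolar arsenic export rose together with 1 exception. Of the 10 genes of this list tested, 9 rose and 1 fell, with a median change of 0.84, against 0.03 over all genes tested. In mock 1 rose and 3 fell (median -0.24). With library totals 7 rose and 2 fell, at a median of 0.32 where the median gene fell by 0.40.

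ABCC2 and ABCC1 carry arsenite bound to phytochelatin across the vacuolar membrane. ABCC2 (chromosome 2, 14602470 to 14612565) had 591 and 581.7 FPKM in As(V) at 6 h, against 182 and 179.5 FPKM in As(V) at 1.5 h. In mock it had 31.9 and 33.0 FPKM at 6 h and 36.3 and 38.8 FPKM at 1.5 h. The 4 groups did not overlap, and the later As(V) libraries were highest (change 1.69 ± 0.08, adjusted p = 2.8e-09). ABCC1 had 503 and 462 FPKM in As(V) at 6 h, against 194 and 188 FPKM in As(V) at 1.5 h (1.33 ± 0.06). ABCC3, a vacuolar transporter of the same family, had 376 and 439.5 FPKM in As(V) at 6 h, against 56.0 and 71.1 FPKM in As(V) at 1.5 h. Its change of 2.67 was the highest of the list. GSH1, the first enzyme of glutathione synthesis, had 498 and 476 FPKM in As(V) at 6 h, against 274 and 265 FPKM in As(V) at 1.5 h (0.85 ± 0.06), and was not called in mock (0.00 ± 0.06). GGCT2;1, which breaks glutathione down, rose by 1.77.

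The exception was PCS1, the phytochelatin synthase (chromosome 5, 17734706 to 17737859). PCS1 had 118 and 124 FPKM in As(V) at 6 h, against 423 and 373 FPKM in As(V) at 1.5 h. Mock roots had 46.9 and 50.4 FPKM at 6 h and 35.1 and 34.4 FPKM at 1.5 h. In the deposited scaling its level in As(V) was thus above mock at both times and highest early. At 6 h this depends on the scaling: with library totals the median gene stood -1.04 log2 units against mock. The fall in As(V) was -1.70 ± 0.12 (adjusted p = 3.4e-07) and its mock change was 0.47 ± 0.13.

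AT2G21045 encodes the arsenate reductase HAC1. It had 601 and 565 FPKM in As(V) at 6 h, against 329 and 327 FPKM in As(V) at 1.5 h. The mock values were 241 and 246 FPKM at 6 h, against 303 and 307 FPKM at 1.5 h. The gene rose in As(V) (0.83 ± 0.07, adjusted p = 3.2e-07) and fell in mock (-0.32 ± 0.07).

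Sulfate assimilation, which feeds glutathione, rose in part. Of 24 genes tested 14 rose and 6 fell (median 0.63), and in mock 4 rose and 7 fell. Without replicate 1 of As(V) at 6 h, 3 fell in place of 6. With library totals the list had 12 higher and 9 lower calls, with a median of 0.11. SIR, the sulfite reductase, had 791 and 761 FPKM in As(V) at 6 h, against 255 and 249 FPKM in As(V) at 1.5 h (1.62 ± 0.06, adjusted p = 2.9e-10). Mock roots held 184 to 227 FPKM of it, so that its early As(V) level lay near mock. APS1, an ATP sulfurylase, had 4763 and 4231 FPKM in As(V) at 6 h, against 1597 and 1534 FPKM in As(V) at 1.5 h (1.52 ± 0.11). SDI1, a repressor of glucosinolate synthesis under sulfur shortage, rose by 1.48, which was not called different from the mock change (adjusted p = 0.057). The transporter genes SULTR1;2, which takes up sulfate, and SULTR4;1 and SULTR4;2, which empty the vacuole of it, rose as well. APS3 and LSU2 fell (-1.46 and -0.89), as did SULTR3;4.

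The hand-written list of xenobiotic detoxification genes rose almost as a whole: 10 of 11 tested, none lower, with a median of 1.02 in As(V) and -0.49 in mock. This list was chosen with earlier results of these data known, so its counts describe these genes and not the class. With library totals 7 were still higher and none lower. AER, an alkenal reductase, had 268 and 209 FPKM in As(V) at 6 h, against 39.5 and 44.6 FPKM in As(V) at 1.5 h. It fell in mock, with 2.45 and 1.83 FPKM at 6 h and 6.53 and 6.58 FPKM at 1.5 h, so that the directions were opposite (2.46 ± 0.13 in As(V) and -1.28 ± 0.33 in mock). UGT74E2, a glucosyltransferase of an auxin precursor, rose by 1.65, and CYP710A1, a sterol desaturase, by 1.59. The cytochrome P450 family, to which CYP710A1 belongs, leaned the other way. Of 113 tested 29 rose and 38 fell in As(V) (median -0.25), and 25 rose and 20 fell in mock. With library totals 14 rose and 56 fell in As(V) (median -0.66).

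Families of conjugating enzymes were mixed. Of 43 UDP-glycosyltransferases 21 rose and 7 fell (median 0.43, and 0.01 with library totals). Without replicate 2 of As(V) at 6 h 4 fell. UGT74F2, which glucosylates salicylic acid, had 1240.5 and 1177 FPKM in As(V) at 6 h, against 94.7 and 112 FPKM in As(V) at 1.5 h. Its mock values of 35.1 to 47.9 FPKM lay below both (3.54 ± 0.15, adjusted p = 1.2e-08, the highest of the family). Of 25 tau glutathione transferases 12 rose and 9 fell (median 0.20), and with library totals 7 rose and 11 fell (median -0.31). In mock 3 tau genes rose and 12 fell (median -0.59). Of 11 phi glutathione transferases 2 rose and 4 fell in mock (median -0.28). Called beyond the mock change were 4 falls and no rise in As(V). In As(V) 1 rose and 7 fell in all, with a median of -0.87. The lower count was 4 without either replicate of As(V) at 6 h or without replicate 1 at 1.5 h, and no gene was then higher. GSTF6 and GSTF7 (-2.02 and -1.66), neither called different from the mock change, lost their calls when any of the 4 As(V) libraries was left out.

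The 26S proteasome, the protease of ubiquitin-tagged proteins, rose broadly. Of its 52 subunit genes, all tested, 39 were higher and 4 lower in As(V) at 6 h, with a median of 0.55. In mock 4 were higher and 1 lower (median 0.07). With library totals 19 were higher and 18 lower at a median of 0.04, so that the rise of the list holds only relative to the median gene, which fell by 0.40 in that scaling. The 4 lower genes were AT1G75990 (-0.41), PBG1 (-0.40), RPN5A (-0.32) and AT5G45620 (-0.31), and without replicate 1 of As(V) at 1.5 h there were 2.

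RPT3, an ATPase of the regulatory particle (chromosome 5, 23569052 to 23571854), had 2099.8 and 2072 FPKM in As(V) at 6 h, against 318 and 334 FPKM in As(V) at 1.5 h. In mock its values were 139 and 134 FPKM at 6 h and 148 and 151 FPKM at 1.5 h. The change in As(V) was 2.68 ± 0.09 (adjusted p = 2.9e-10), against -0.13 ± 0.09 in mock. RPT3 overlaps AT5G58300 on the same strand. RPT2B had 358 and 306 FPKM in As(V) at 6 h, against 78.2 and 85.2 FPKM in As(V) at 1.5 h (2.01), and RPT1A had 870.4 and 837 FPKM at 6 h, against 237 and 239 FPKM at 1.5 h (1.84). All 3 are ATPases of the same ring, and for each the As(V) groups did not overlap.

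Proteasome genes of Arabidopsis are known to be controlled by the NAC factors NAC053 and NAC078 through promoter elements with a TGGGC core. The 250 bases before the start of RPT3 and RPT1A, subunits that rose and carry this core more than once, chosen after their values were seen, are shown from the RefSeq TAIR10.1 genome, 5′ to 3′ on the strand of the gene. Capitals mark TGGGC, or GCCCA where it lies on the other strand. RPT3 is on the plus strand, chr5:23568802-23569051, and RPT1A on the minus strand, chr1:20068501-20068750.
RPT3: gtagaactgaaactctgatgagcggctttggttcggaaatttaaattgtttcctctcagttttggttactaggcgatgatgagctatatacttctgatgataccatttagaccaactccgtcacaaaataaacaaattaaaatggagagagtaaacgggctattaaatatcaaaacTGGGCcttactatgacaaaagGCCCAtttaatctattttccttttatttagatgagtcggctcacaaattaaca
RPT1A: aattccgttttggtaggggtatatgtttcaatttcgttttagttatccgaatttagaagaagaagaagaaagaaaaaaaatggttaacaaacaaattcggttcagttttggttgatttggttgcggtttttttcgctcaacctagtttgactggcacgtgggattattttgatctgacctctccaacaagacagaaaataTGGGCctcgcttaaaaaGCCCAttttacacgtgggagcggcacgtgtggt
TGGGC, searched on both strands, was in 48.1% of the 52 proteasome promoters of this length, in 26.4% of those of all genes tested and in 22.7% of 27437 promoters of protein-coding genes. It was in 25.5% of the promoters of genes called higher at 6 h, and in 59.6% of those of the 292 cytosolic ribosomal protein genes and 52.8% of those of the 36 histone genes, so the match is not particular to the proteasome. A match is a description and not a known site. NAC078 itself had 780.4 and 787 FPKM in As(V) at 6 h, against 215 and 211 FPKM in As(V) at 1.5 h (1.87 ± 0.08).

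Autophagy genes rose as well. Of 24 tested, 13 rose and 2 fell in As(V) (median 0.54), and in mock none rose and 1 fell. With library totals 12 were higher and 10 lower (median 0.06). ATG9, a membrane protein of the forming autophagosome, had 314 and 296 FPKM in As(V) at 6 h, against 46.8 and 47.1 FPKM in As(V) at 1.5 h (2.67 ± 0.07, adjusted p = 1e-10). NBR1, the receptor that brings ubiquitin-tagged cargo to it, had 1499 and 1429 FPKM in As(V) at 6 h, against 279.5 and 278 FPKM in As(V) at 1.5 h (2.39 ± 0.10). NBR1 fell in mock (-0.39), where it had 124 and 129.8 FPKM at 6 h and 153 and 181 FPKM at 1.5 h. ATG18A rose by 1.80 and ATG7, the activating enzyme of the conjugation step, by 1.63. The ATG8 genes that rose, whose products coat the autophagosome, included ATG8A (1.06), ATG8B (1.38), ATG8E (1.63), ATG8H (1.54) and ATG8I (1.00).

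**Figure D3:**
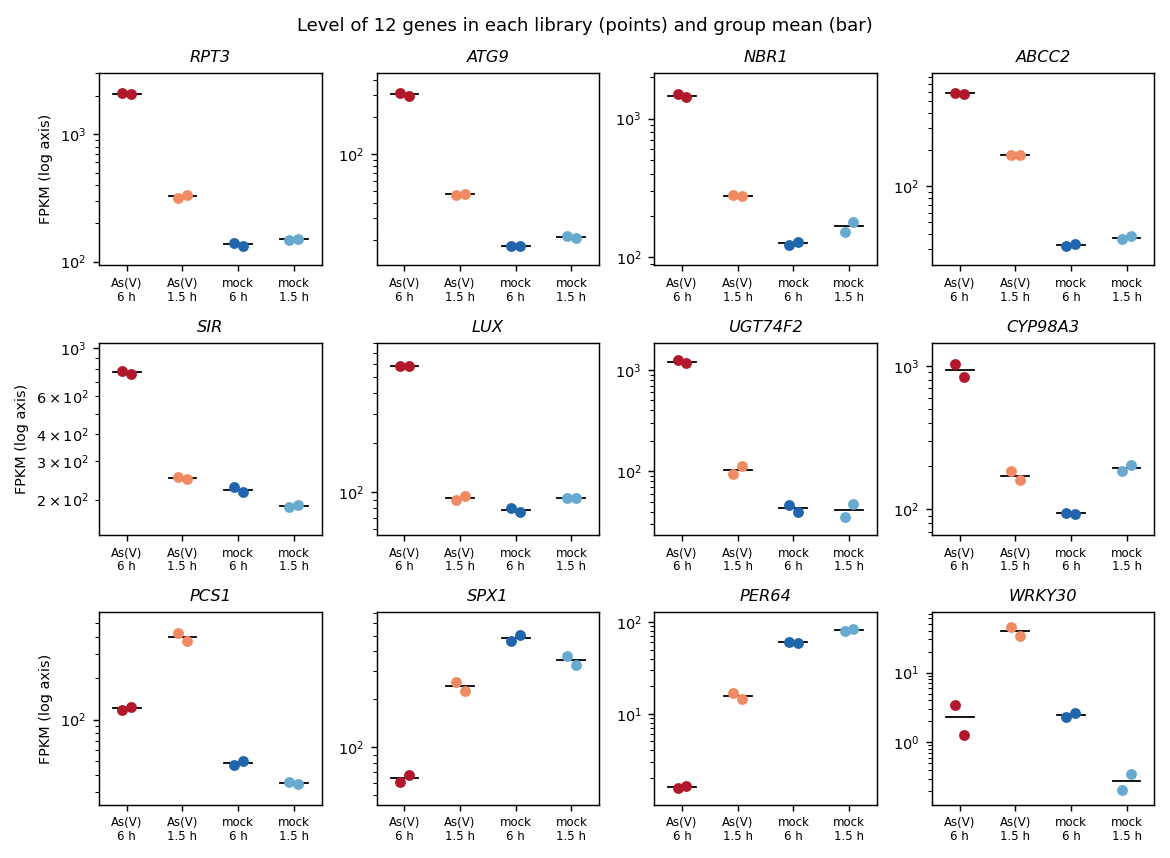
FPKM of 12 genes in each library (points, log axis) with group means (bars), for As(V) at 6 h and 1.5 h and mock at 6 h and 1.5 h. From RPT3 to CYP98A3 both libraries of As(V) at 6 h lie above both of 1.5 h, and from PCS1 to WRKY30 they lie below.

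The plot of 12 genes by library places these levels beside mock. Of the 8 risers SIR, LUX, CYP98A3 and NBR1 were within 2-fold of mock in As(V) at 1.5 h, with SIR and NBR1 above every mock library. ABCC2, UGT74F2, RPT3 and ATG9 were already over 2-fold above mock. Of the fallers, PCS1 and WRKY30 were over 2-fold above mock in As(V) at 1.5 h. SPX1 and PER64 were below every mock library at both times, SPX1 within 2-fold of mock at 1.5 h.

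Stress NAC factors, the family that holds the proteasome regulators and several regulators of senescence, rose in 13 of 17 cases and fell in 1 (median 0.78 in As(V), -0.24 in mock). With library totals 9 were higher and 2 lower (median 0.27). NAC092, also called ORE1, a senescence factor, had 79.6 and 52.8 FPKM in As(V) at 6 h, against 8.49 and 6.65 FPKM in As(V) at 1.5 h (2.95 ± 0.29, adjusted p = 5.6e-06). NAC046 rose by 2.198. In mock neither gene was called.

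Energy starvation, amino acid breakdown and senescence genes had 14 of 26 members higher and 4 lower (median 0.66, and 0.15 with library totals). BGLU30, a glucosidase induced by darkness, had 295 and 320.1 FPKM in As(V) at 6 h, against 27.1 and 31.0 FPKM in As(V) at 1.5 h (3.36 ± 0.27), while all mock libraries were under 1 FPKM. Its change was not called different from the mock change (3.31 ± 2.18, adjusted p = 0.24). ETFQO, of the breakdown of branched-chain amino acids, rose by 1.84. SEN1, a senescence marker, went the other way, with 2.33 and 2.44 FPKM in As(V) at 6 h, against 12.5 and 13.2 FPKM in As(V) at 1.5 h (-2.03). Of the hypoxia and fermentation list 4 of 18 rose and 2 fell (median 0.07), but with library totals 2 rose and 6 fell (median -0.44). No fall was called without either library of As(V) at 6 h. The fallers include SUS4 (-2.37), whose call was lost without either library of As(V) at 6 h or without replicate 2 at 1.5 h. SUS1, also a sucrose synthase, rose (1.92).

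Jasmonate genes rose. Of 22 jasmonate genes 14 rose and 1, AOC3 (-0.57), fell (median 0.77, and 0.26 with library totals). AOC3 was not called without replicate 2 of As(V) at 6 h or replicate 1 at 1.5 h. ACX1, an oxidase of the last steps of jasmonate synthesis, had 2116 and 1799 FPKM in As(V) at 6 h, against 299 and 303 FPKM in As(V) at 1.5 h. In mock it fell, with 74.4 and 74.8 FPKM at 6 h and 112 and 121 FPKM at 1.5 h (2.69 ± 0.10 in As(V), -0.63 ± 0.10 in mock). The repressor genes JAZ7 (2.81), JAZ2 (2.37), JAZ3 (2.29), JAZ9 (1.92) and JAZ10 (1.64) rose, as did MYC2 (1.65), the factor they repress.

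More abscisic acid genes rose than fell. Of 12 tested 8 rose and 3 fell (median 0.75), and with library totals 6 rose and 5 fell (median 0.25). The 3 falls are near the share of all genes tested, of which 22.5% were lower and 32.7% higher. In mock 2 rose and 6 fell (median -0.27). The phosphatase genes that dampen the signal rose: HAB1 had 196 and 178 FPKM in As(V) at 6 h, against 33.9 and 33.4 FPKM in As(V) at 1.5 h (2.44 ± 0.10), PP2CA rose by 1.91 and ABI1 by 1.78. NCED3, an enzyme of abscisic acid synthesis, and the responsive genes KIN1 and RD29A fell (-0.57, -1.16 and -2.20). None of these 3 falls was called different from the mock change. KIN1 and RD29A fell in mock too (-1.36 and -2.57), and for RD29A the difference of 0.37 ± 0.28 had an adjusted p of 0.31. Of 15 ethylene genes 8 rose and 5 fell (median 0.30), but with library totals 6 rose and 7 fell (median -0.20). The receptors of EIN3 breakdown, EBF1 and EBF2, rose in As(V) (1.64 and 1.46) and fell in mock (-0.56 and -0.96), and the ACC oxidase gene EFE fell in As(V) (-1.58).

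Clock genes went apart from mock. Of 10 clock genes 6 rose in As(V) and 1, ELF4 (-0.83), fell, with a median of 1.104. In mock none rose and 6 fell, with a median of -0.53. With library totals 6 rose and 2 fell in As(V), at a median of 0.59. LUX, an evening complex factor (chromosome 3, 17183042 to 17186959), had 582.2 and 584 FPKM in As(V) at 6 h, against 90.204 and 95.5 FPKM in As(V) at 1.5 h. Mock libraries held 81.0 and 76.4 FPKM at 6 h and 92.2 and 92.9 FPKM at 1.5 h. Only the later As(V) libraries stood apart (2.64 ± 0.09, adjusted p = 2.7e-10). CCA1, the morning factor, had 63.5 and 78.0 FPKM in As(V) at 6 h, against 23.9 and 21.9 FPKM in As(V) at 1.5 h. Its mock levels were 0.301 and 0.327 FPKM at 6 h and 1.70 and 2.07 FPKM at 1.5 h. It thus rose in As(V) (1.58 ± 0.09) and fell in mock (-1.13 ± 0.35). PRR5, a repressor of morning genes, rose by 2.47 and was not called in mock (-0.22 ± 0.10).

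**Figure D4:**
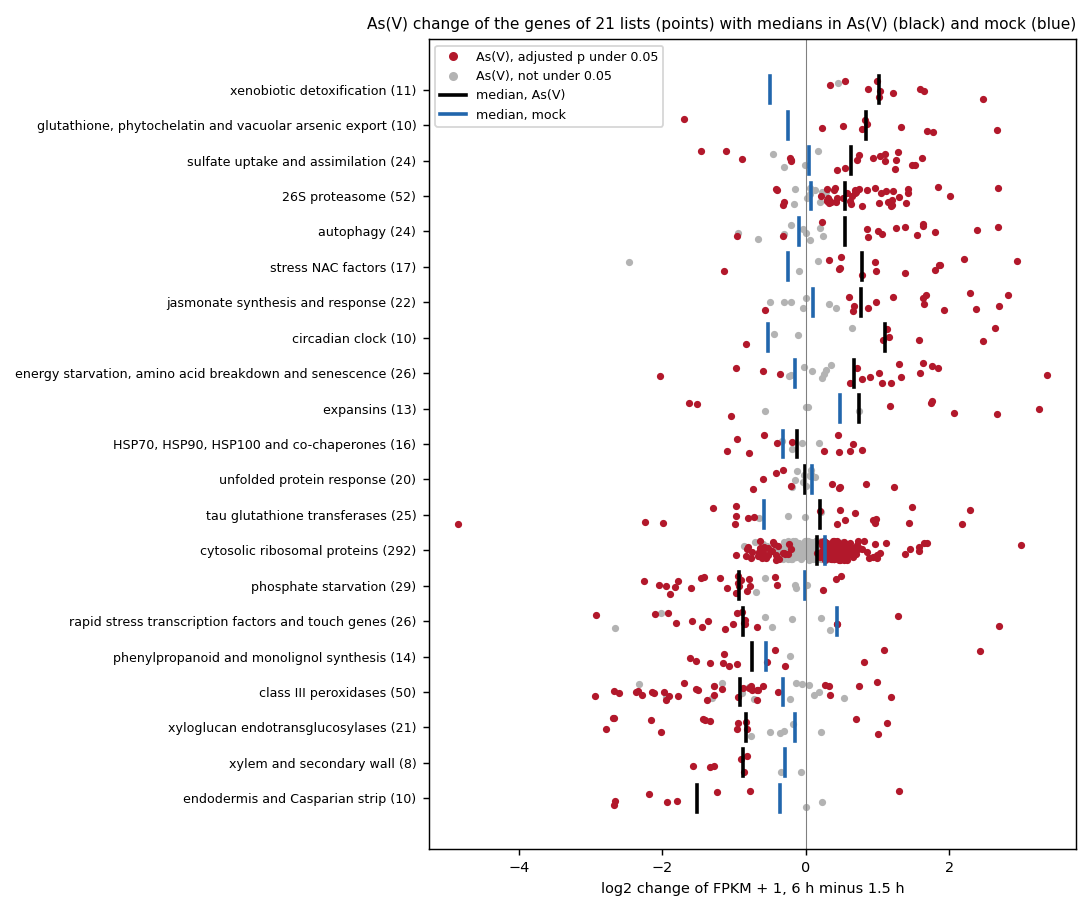
Change between 6 h and 1.5 h in As(V) (log2 of FPKM + 1) of every tested gene of 21 lists, called in red and not called in grey, with the As(V) median in black, the mock median in blue and the number of genes in brackets. Medians run from 1.104 in clock genes to -1.51 in Casparian strip genes, and no gene of the xenobiotic list lies below 0.

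As the plot of lists shows, members spread widely around their medians. In the tau glutathione transferases changes ran from -4.84 to 2.28, and in the stress NAC factors from -2.46 to 2.95.

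Rapid stress transcription factors and touch genes, which answer within minutes to many stimuli, fell. Of 26 tested 15 were lower and 4 higher in As(V) at 6 h, at a median of -0.88. In mock 10 were higher and none lower, at a median of 0.44. The lower count was 8 without replicate 1 of As(V) at 6 h, 9 without replicate 2 of As(V) at 6 h and 8 without replicate 1 at 1.5 h, and the higher count was 2 without replicate 1 at 6 h or replicate 2 at 1.5 h. ZAT11, a zinc finger factor, had 20.8 and 14.0 FPKM in As(V) at 6 h, against 154 and 120.0 FPKM in As(V) at 1.5 h (-2.93 ± 0.27, adjusted p = 4.5e-06). In mock it had 4.88 to 11.1 FPKM, below both As(V) groups. The wall enzyme gene TCH4 had 60.3 and 85.0 FPKM in As(V) at 6 h, against 308 and 315 FPKM in As(V) at 1.5 h. It fell, as did the calmodulin-like TCH3 by 1.93, the kinase gene MPK3 by 1.58 and the factors ERF105, ZAT10 and WRKY33 by 1.81, 1.36 and 0.88. RRTF1, a redox-responsive factor, went the other way, with 130.1 and 69.4 FPKM in As(V) at 6 h, against 16.8 and 11.3 FPKM in As(V) at 1.5 h (2.70 ± 0.35). Its difference from the mock change was not called (3.64 ± 1.55, adjusted p = 0.084).

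The 15 lowest changes lay between -3.28 and -4.93. GSTU12, a tau glutathione transferase (chromosome 1, 26334250 to 26335630), had 4.63 and 3.77 FPKM in As(V) at 6 h, against 168 and 129 FPKM in As(V) at 1.5 h. Mock roots had 3.57 and 3.85 FPKM at 6 h and 0.728 and 0.725 FPKM at 1.5 h. The later As(V) level lay near that of mock at 6 h (-4.84 ± 0.39, adjusted p = 6.8e-07). WRKY30 (chromosome 5, 8153115 to 8154710), a defence factor, had 3.40 and 1.26 FPKM in As(V) at 6 h, against 44.9 and 34.0 FPKM in As(V) at 1.5 h. The mock values were 2.33 and 2.63 FPKM at 6 h and 0.209 and 0.347 FPKM at 1.5 h (-3.68 ± 0.53 in As(V)).

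The others included AT1G55450 (-4.93), the phloem lectin genes PP2-B13 and PP2-B14 (-4.70 and -3.58), the lipase gene DLAH (-4.16) and HSFA7B, a heat shock factor (-3.34). PROPEP3, the precursor of a danger signal peptide, had 1.14 and 1.62 FPKM in As(V) at 6 h, against 58.3 and 39.1 FPKM in As(V) at 1.5 h. Its call (-4.36, adjusted p = 0.025) was lost without either library of As(V) at 6 h or without replicate 1 at 1.5 h. Not all of these genes were above mock early. AT1G14960 had 0.994 and 9.74 FPKM in As(V) at 6 h and 47.4 and 50.3 FPKM in As(V) at 1.5 h, below the 71.6 to 115 FPKM of mock, and AT1G52060 had 3.77 and 2.98 FPKM at 6 h and 41.9 and 40.5 FPKM at 1.5 h, below the 76.6 to 104 FPKM of mock. IGMT3 (-3.35) shares 44.7% of its windows with other places in the genome.

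WRKY factors bind TTGAC. GSTU12 and WRKY30 were the members of the 15 lowest chosen, after their values were seen, to show this motif, in the 250 bases before their starts (RefSeq, TAIR10.1, 5′ to 3′ on the strand of the gene). Capitals mark TTGAC, or GTCAA where it lies on the other strand. GSTU12 is on the minus strand, chr1:26335631-26335880, and WRKY30 on the minus strand, chr5:8154711-8154960.
GSTU12: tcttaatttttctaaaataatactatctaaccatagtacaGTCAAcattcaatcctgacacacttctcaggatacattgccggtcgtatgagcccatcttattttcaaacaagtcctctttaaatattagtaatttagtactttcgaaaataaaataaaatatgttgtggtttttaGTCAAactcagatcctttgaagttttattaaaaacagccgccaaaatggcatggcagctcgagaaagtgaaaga
WRKY30: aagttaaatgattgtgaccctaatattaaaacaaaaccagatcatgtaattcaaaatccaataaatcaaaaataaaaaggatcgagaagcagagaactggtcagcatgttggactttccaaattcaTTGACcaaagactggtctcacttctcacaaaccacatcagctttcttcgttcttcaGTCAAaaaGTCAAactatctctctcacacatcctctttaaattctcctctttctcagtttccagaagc
TTGAC, on either strand, was in 12 of these 15 promoters, 7 of the promoters of the 15 highest changes, 45.8% of those of all genes tested and 44.9% of all 27437 promoters of protein-coding genes. Over all genes called lower at 6 h it was in 49.1% of promoters, and over all called higher in 45.6%, both near the share of all genes tested.

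Phosphate starvation genes, which roots without phosphate keep high, fell. Of 29 tested 21 were lower in As(V) at 6 h and 3 higher, with a median of -0.94, and with library totals 25 were lower and none higher. In mock 10 rose and 4 fell (median -0.01). SPX1, a phosphate sensor that holds the starvation response back and is itself induced by it (chromosome 5, 6802282 to 6803655), had 60.9 and 67.3 FPKM in As(V) at 6 h, against 256.3 and 226 FPKM in As(V) at 1.5 h. In mock its values were 468 and 507 FPKM at 6 h and 377 and 331 FPKM at 1.5 h. The groups did not overlap, with As(V) at 6 h lowest and mock at 6 h highest (-1.89 ± 0.11 in As(V), 0.46 ± 0.09 in mock). SPX3 fell by 2.05 in As(V) and rose by 1.08 in mock.

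The phosphate and arsenate transporters fell unequally. PHT1;4 had 14.5 and 17.0 FPKM in As(V) at 6 h, against 60.8 and 55.6 FPKM in As(V) at 1.5 h (-1.82 ± 0.19), and mock roots held 172 to 246 FPKM. PHT1;1 had 163 and 139 FPKM in As(V) at 6 h, against 216 and 184 FPKM in As(V) at 1.5 h (-0.40 ± 0.09), and it fell in mock too (-0.65 ± 0.09), with a difference that was not called (0.25 ± 0.13, adjusted p = 0.13). PHT1;1 and PHT1;2 share 42.5% and 45.6% of their windows with other places in the genome, so reads may have been split between them. PHT1;9, PAP17, SQD1 and IPS1 fell by 1.60, 1.46, 1.79 and 0.97. PHR1, the master factor of the response, rose slightly (0.24), as did SPX2 (0.41) and PPCK1 (0.48), and none of these was higher with library totals. WRKY6, a repressor of PHT1;1 in arsenate, had 448 and 394 FPKM in As(V) at 6 h, against 381 and 347 FPKM in As(V) at 1.5 h and 35.7 to 42.0 FPKM in mock. It stayed above mock with no called change (0.21 ± 0.14, adjusted p = 0.22), and with library totals it fell (-0.31, adjusted p = 0.038).

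Genes of the Casparian strip, the barrier of the root endodermis, fell. Of 10 endodermis and Casparian strip genes 7 were lower and 1 higher (median -1.51, and -0.36 in mock). In mock 5 were lower and 1 higher, and 6 of the 7 falls in As(V) were called lower than the mock change. PER64, a peroxidase of the Casparian strip (chromosome 5, 16852628 to 16854224), had 1.56 and 1.63 FPKM in As(V) at 6 h, against 16.9 and 14.5 FPKM in As(V) at 1.5 h. Mock libraries held 60.9 and 59.4 FPKM at 6 h and 80.8 and 83.8 FPKM at 1.5 h, so that As(V) lay below mock at both times (-2.68 ± 0.30, adjusted p = 6.5e-06). The scaffold genes CASP4, CASP2 and CASP1 fell by 2.66, 1.94 and 1.24 and ESB1, which helps place the lignin, by 1.79. SCR, a factor of endodermis identity, rose (1.301), and MYB36, which switches the CASP genes on, was not called (0.00). Summed over the 10 genes, the level was 95.1 and 99.7 FPKM in As(V) at 6 h, against 250.5 and 258.5 FPKM in As(V) at 1.5 h. In whole roots, fewer cells of a type and less RNA per cell cannot be told apart.

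Lignin and secondary wall genes fell as well. Of 8 xylem and secondary wall genes 6 fell and none rose (median -0.88). Among the fallers were LAC17 and LAC4, laccases of lignin (-1.57 and -1.28), and CESA4, a cellulose synthase of the secondary wall (-1.34). In mock 5 of this list fell and none rose (median -0.29), and all 6 falls in As(V) were called lower than the mock change. Of 14 phenylpropanoid and monolignol genes 10 fell and 3 rose (median -0.75), but 11 fell in mock too (median -0.56). 4CL1 and CCOAOMT1 fell by 1.61 and 1.34. CYP98A3, a hydroxylase of the same pathway, had 1026 and 834 FPKM in As(V) at 6 h, against 184 and 159.8 FPKM in As(V) at 1.5 h. Its mock levels were 94.6 and 93.3 FPKM at 6 h and 184 and 202 FPKM at 1.5 h. It rose in As(V) and fell in mock (2.42 ± 0.11 and -1.03 ± 0.11), and HCT and C4H also rose in As(V) (0.81 and 1.09).

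Of 50 class III peroxidases 29 fell and 6 rose (median -0.92), and in mock 19 fell and 2 rose (median -0.32). Of 21 xyloglucan endotransglucosylases, which rearrange wall polymers, 12 fell and 3 rose (median -0.84). XTH17 had 1.14 and 3.24 FPKM in As(V) at 6 h, against 22.1 and 18.1 FPKM in As(V) at 1.5 h and 48.5 to 66.96 FPKM in mock (-2.79 ± 0.47). Of 13 expansins, which loosen walls, 6 were higher and 3 lower (median 0.74, and 0.25 with library totals). Over all genes tested 32.7% were higher and 22.5% lower. In mock 8 expansins rose and none fell, and all 6 rises in As(V) were called above the mock change. The median of the list nevertheless stood below mock at both times, at -1.58 log2 units at 6 h and -1.82 at 1.5 h. EXPA1 had 45.0 and 56.9 FPKM in As(V) at 6 h, against 7.43 and 6.89 FPKM in As(V) at 1.5 h. Its mock values of 25.7 to 36.1 FPKM lay between (2.66 ± 0.19). EXPA11 had 11.5 and 14.0 FPKM in As(V) at 6 h, against 0.262 and 0.648 FPKM in As(V) at 1.5 h, and 8.73 to 14.7 FPKM in mock.

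Of 17 aquaporins of the plasma membrane and vacuole 10 fell and 4 rose (median -0.45). Without replicate 1 of As(V) at 6 h 6 fell. TIP2;2, a vacuolar aquaporin, had 24.2 and 21.2 FPKM in As(V) at 6 h, against 85.1 and 78.6 FPKM in As(V) at 1.5 h and 293 to 399 FPKM in mock (-1.81 ± 0.16). Of 6 nitrate genes 5 fell and 1 rose in As(V), and in mock 4 fell and 1 rose. Of the 5 falls in As(V) 2 were called lower than the mock change. Without replicate 2 of As(V) at 6 h 3 fell. NRT2.1, the main high-affinity nitrate transporter, fell in As(V) (-2.05 ± 0.27) and in mock (-1.24 ± 0.26), and the difference was not called (-0.81 ± 0.38, adjusted p = 0.11).

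Root hair and epidermal genes did not move as a block. Of 14 hair genes 5 rose and 7 fell (median -0.22). RHD6, the factor that starts hairs, had 16.2 and 16.3 FPKM in As(V) at 6 h, against 2.87 and 2.03 FPKM in As(V) at 1.5 h, and 11.5 to 14.5 FPKM in mock. In the deposited scaling its level was over 2-fold below mock at 1.5 h and within 2-fold of it at 6 h (change 2.33 ± 0.25). PRP3, a wall protein of the hair, had 25.5 and 27.5 FPKM in As(V) at 6 h, against 139 and 136 FPKM in As(V) at 1.5 h, and 283 to 406 FPKM in mock (-2.33 ± 0.14). ANL2, a homeodomain factor of the outer layers (chromosome 4, 299261 to 304612), had 30.6 and 33.0 FPKM in As(V) at 6 h, against 8.28 and 9.92 FPKM in As(V) at 1.5 h, and 10.4 to 11.5 FPKM in mock. It rose by 1.70 ± 0.10 (adjusted p = 1.1e-08) and was not called in mock (0.01 ± 0.09).

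GL2, which marks the cells that bear no hair (chromosome 1, 30036956 to 30041440), had 3.02 and 2.87 FPKM in As(V) at 6 h, against 2.099 and 1.47 FPKM in As(V) at 1.5 h. In mock it had 8.93 and 9.66 FPKM at 6 h and 5.60 and 6.61 FPKM at 1.5 h. It rose by 0.51 ± 0.20 in As(V) (adjusted p = 0.046) and by 0.54 ± 0.09 in mock, and the difference of -0.03 ± 0.22 was not called (adjusted p = 0.93). The As(V) rise was not called when any of the 4 As(V) libraries was left out (0.35 to 0.68) or under median-of-ratios scaling (0.49). ASK18 had 449.8 and 422 FPKM in As(V) at 6 h, against 289.7 and 293 FPKM in As(V) at 1.5 h (0.58 ± 0.07), and 10.2 to 12.4 FPKM in mock. With library totals its change was 0.06 and not called.

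Heat shock genes were high at both As(V) times and did not rise together between them. Of 9 genes listed as cytosolic small heat shock genes, of which AT5G37670 is known for a peroxisomal product, 1 rose and 2 fell (median 0.27). With library totals 1 rose and 3 fell (median -0.25). In the deposited scaling their median stood 9.13 log2 units above mock at 6 h and 8.62 at 1.5 h. HSP18.2 had 12248 and 10598 FPKM in As(V) at 6 h, against 4180.3 and 4263 FPKM in As(V) at 1.5 h, while all mock libraries had 4.70 to 11.99 FPKM (1.43 ± 0.19). AT5G37670 had 298 and 408 FPKM in As(V) at 6 h, against 1779 and 1657 FPKM in As(V) at 1.5 h, with 7.42 to 11.2 FPKM in mock (-2.30 ± 0.11). These 2 genes moved in opposite directions in As(V), though the rise of HSP18.2 was not called different from the mock change (0.92 ± 0.51, adjusted p = 0.17). Of 16 genes of the large heat shock proteins and co-chaperones 6 rose and 6 fell, and with library totals none rose and 11 fell. Without either library of As(V) at 6 h or without replicate 2 at 1.5 h 3 rose. Of 20 genes of the unfolded protein response 5 rose and 5 fell (median -0.01), and with library totals 2 rose and 15 fell (median -0.51). TIN1 rose by 1.22 and BIP2 by 0.84, while SHD, the chaperone of the secretory pathway, fell by 0.73.

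Cytosolic ribosomal protein genes moved little. Of 292 tested 108 rose and 31 fell in As(V) (median 0.15), and 157 rose and 3 fell in mock (median 0.27). The rises in As(V) are near the 32.7% of all genes tested. With library totals 16 rose and 164 fell (median -0.36, near the -0.40 of all genes). The lower count was 19 and 14 without replicates 1 and 2 of As(V) at 6 h and 14 without replicate 2 at 1.5 h. RPL10B stood apart, with 773 and 687 FPKM in As(V) at 6 h, against 89.2 and 90.5 FPKM in As(V) at 1.5 h (3.01 ± 0.07) and 30.3 to 39.2 FPKM in mock. Of 36 histone genes 10 rose and 15 fell in As(V), and 21 rose and none fell in mock. The lower count was 8 without replicate 2 of As(V) at 6 h.

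Where these genes stood against mock was counted last, with a level called above or below mock when the group means of FPKM + 1 differed by over 2-fold, without a test. The genes were chosen by their change in As(V), which in part fixes the counts. Of the 2264 genes called over 2-fold higher at 6 h, 1101 (48.6%) were within 2-fold of mock at 1.5 h and above it at 6 h. Another 685 (30.3%) were above mock at both times, 194 (8.6%) were below mock at 1.5 h and within 2-fold of it at 6 h, and 22 were below mock at both. CYP98A3 and LUX belong to the first of these sets, and ABCC2 and RPT3 to the second. Over all genes tested, 11.3% were within 2-fold of mock at 1.5 h and above it at 6 h, and 13.4% were above it at both times.

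Of the 1254 genes called over 2-fold lower at 6 h, 476 were within 2-fold of mock at 1.5 h and below it at 6 h and 273 (21.8%) were below mock at both times. From above mock at 1.5 h, 183 (14.6%) came within 2-fold of it at 6 h, 139 (11.1%) stayed above it and 23 (1.8%) fell below it. Over all genes tested, 9.8% were within 2-fold of mock at 1.5 h and below it at 6 h and 8.3% were below it at both times. Above mock at 1.5 h, 2.5% of all genes came within 2-fold of it at 6 h, 13.4% stayed above it and 0.1% fell below it. PER64 and PHT1;4 were below mock at both times, PCS1 and ZAT11 were above mock at 1.5 h. The levels against mock depend on the scaling too. With library totals the median gene stood -1.04 log2 units against mock at 6 h and -0.57 at 1.5 h. In that scaling 1074 of the 2264 genes were above mock at 6 h, against 1816 in the deposited one.

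Medians of lists against mock differed in the same way. The clock list had a median of 1.83 log2 units above mock at 6 h and 0.22 at 1.5 h, and the abscisic acid list 1.57 and 0.08. The xenobiotic list was high at both times (6.26 and 5.26), as were the stress NAC factors (3.51 and 2.14) and sulfate genes (2.23 and 1.09). The rapid stress factors stood 1.04 above mock at 6 h and 2.52 at 1.5 h. Phosphate starvation genes stood at -1.18 at 6 h and -0.03 at 1.5 h, and Casparian strip genes at -2.43 and -1.78. All genes tested had medians of 0.02 and -0.01.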

How the data were processed

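Values are the deposited FPKM of the authors, 1 series table of 33557 genes in 12 libraries. The submitters' processing notes name the genome TAIR10 and the tools edgeR, HTSeq 0.6.0, STAR 2.5.4 and Trim Galore. The role and order of these tools, the formula of the FPKM, the annotation version and the use of strand in counting are not given in the sources used here. FPKM divides by length and by a library size, so a scaling that differs between libraries moves every gene of a library together.

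Within a gene and a library the values are whole multiples of what 1 read is worth. This step was recovered for 15037 of 22771 genes (66.0%), within 0.05 reads. Reads were estimated from it, from genes with few reads (3064 genes) or from a relation to exon length (exon length minus 204 bases, not used under 254 bases). The relation held for 526 of 2888 single-exon genes, so these reads, estimated for 31960 genes, are approximate, as is the depth. They set weights and the minimum of reads, and they do not replace FPKM.

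The planned test was limma 3.58.1 in R 4.3.3 on log2(FPKM + 1). It had 1 coefficient for each of 6 groups over 12 libraries, weights that voom derived from estimated reads, and robust eBayes variances (residual degrees of freedom 6, prior median 6.46). Benjamini-Hochberg adjustment ran over 17554 genes, and an adjusted p under 0.05 was called. Genes entered when 2 or more of the 4 As(V) libraries had 1 FPKM or more and 2 or more had 10 estimated reads or more. On simulated data for this comparison (3 sets of 17427 genes, 200 of them changed), 38.7%, 72.7%, 92.7% and 95.3% of changes of 1.5, 2, 4 and 8 fold were found. Of the calls 2.0% were false, and 0 signs were wrong. The simulation had the same spread between replicates for all genes, a scaling known exactly and far fewer changed genes than the 9676 called here. Its shares may therefore not hold for the real data.

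The genes and the 54 lists (42 written by hand, 12 families from gene descriptions) were chosen with earlier results of these data known. Genes were named by a rule: the 15 highest and 15 lowest called changes between groups that do not overlap and with a mean of at least 5 FPKM, up to 3 of the largest per list with at least 3 calls, and 12 fixed genes. Other list members are named beyond the rule. Names, positions and promoters came from RefSeq TAIR10.1, which named 32810 genes and left 747 unnamed. For 176 named genes, exon windows of 50 bases were searched for in the genome, and in 7 over 20% occur elsewhere. Of the 176, 35 overlap another gene. Alternatives were other scalings, pseudocounts, filters, weights, a replicate block, and leaving out each library.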

Additional observations from a re-analysis of the deposited data

Results flagged for a closer look

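For 1496 genes the As(V) change and the mock change between 6 h and 1.5 h were both called, in opposite directions, and their difference was called too. The values below are log2 differences, As(V) change minus mock change, of the 34 named genes among them (limma, Benjamini-Hochberg adjusted p under 0.05), and no explanation of them was tested.

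Genes that rose in As(V) and fell in mock were CYP72A15 (4.63), AER (3.74), CYP98A3 (3.46), UGT89B1 (3.39), ACX1 (3.33), AT4G26540 (2.83), GSTU27 (2.79), NBR1 (2.78), CCA1 (2.71), EBF2 (2.42), ABCG37 (2.21), EBF1 (2.21), WRKY4 (2.19), CAT1 (2.15), BTS (2.11), AT2G25790 (2.09), CAT2 (1.61) and AT2G21045 (1.15). CYP72A15 had 360.4 and 314 FPKM in As(V) at 6 h, against 54.3 and 51.0 FPKM in As(V) at 1.5 h. In mock it had 19.4 and 17.5 FPKM at 6 h, against 79.8 and 70.9 FPKM at 1.5 h.

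Genes that fell in As(V) and rose in mock were DLAH (-6.68), PP2-B13 (-6.66), CYP702A5 (-4.01), AT1G14960 (-3.96), AT1G52060 (-3.57), SPX3 (-3.13), AT3G45930 (-2.53), SPX1 (-2.36), HSFA7A (-2.23), PCS1 (-2.18), NIA1 (-1.77), CYP79B2 (-1.61), CYP79B3 (-1.47), MCM5 (-1.30), MCM2 (-1.16) and SHD (-1.03). DLAH had 1.62 and 0.329 FPKM in As(V) at 6 h, against 36.8 and 27.96 FPKM in As(V) at 1.5 h. In mock it had 22.5 and 23.1 FPKM at 6 h, against 3.33 and 2.94 FPKM at 1.5 h. CYP79B2 was not called in As(V) without replicate 1 at 6 h (-0.58), nor was CYP79B3 (-0.30). CYP79B3 was also not called when either library of As(V) at 1.5 h was left out (-0.64 each).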

How the results depend on the processing

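The counts of As(V) at 6 h against 1.5 h moved by over 1.5 times only with library totals: 2932 genes higher and 8335 lower, and for the difference from the mock change 2693 higher and 7822 lower, with 2322 higher and 6946 lower called in both tests. Without weights (limma-trend) the mock count of higher genes was 1136. Leaving out 1 library at a time gave 5072 to 5316 genes higher and 2844 to 3389 lower in As(V), 789 to 1023 higher and 1164 to 1707 lower in mock, 4691 to 4922 higher and 2679 to 3136 lower for the difference, and 4166 to 4428 higher and 2061 to 2630 lower in both tests. Of 176 named genes, 3 changed sign, all with library totals: TTG1 (-0.13), FER4 (-0.19) and WRKY6 (-0.31). The cause was not tested.

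No pairing by replicate number was visible: deviations of same-numbered libraries correlated at 0.06 between the As(V) times and at -0.02 between the mock times. Both lay within the range of -0.07 to 0.12 over 15 pairs of groups. The labels do not say what same-numbered samples share, and these correlations cannot show it. With the replicate block 5798 genes were higher and 4099 lower in As(V), 1770 and 2204 in mock, 5272 and 3590 for the difference, and 4736 and 2951 in both tests. Of the named genes 3 lost their call under the block. The counts against mock under other scalings were added after the data were seen.

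With 2 libraries a group, changes under 2-fold were often missed on simulated data, in which only 200 genes changed. The share missed in the real data may differ. The cause of the difference between deposited scaling and library totals was not tested.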

Other observations

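Iron, auxin and metal-binding lists were small and mixed. Of 11 iron deficiency and coumarin genes 4 rose and 1 fell (median -0.04), of 7 auxin transport genes 3 rose and 1 fell (0.32), and of 7 metallothionein and ferritin genes 4 rose and none fell (0.25). With library totals 3 rose and 4 fell (-0.55), 1 rose and 2 fell (-0.14), and 2 rose and 4 fell (-0.27), in the same order. Without replicate 2 of As(V) at 6 h or replicate 1 at 1.5 h, 2 metallothionein and ferritin genes rose and no auxin transport gene fell, and without replicate 1 at 1.5 h 3 iron genes fell. ABCG37, an exporter of auxin precursors and coumarins, had 548 and 539.9 FPKM in As(V) at 6 h, against 153 and 141 FPKM in As(V) at 1.5 h (1.88 ± 0.09, limma, adjusted p = 2e-09). BTS, a ubiquitin ligase that restrains the iron deficiency response, had 395 and 381 FPKM in As(V) at 6 h, against 117 and 117 FPKM in As(V) at 1.5 h (1.72 ± 0.09). Both fell slightly in mock (-0.33 and -0.39). PIN2, an auxin exporter of the root tip, had 186 and 187 FPKM in As(V) at 6 h, against 50.3 and 54.8 FPKM in As(V) at 1.5 h (1.81 ± 0.07). MT2A, a metallothionein, had 1618 and 1549 FPKM in As(V) at 6 h, against 479 and 549 FPKM in As(V) at 1.5 h, and 46.6 to 58.4 FPKM in mock (1.62 ± 0.09).

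Mitochondrial stress genes stood above mock at both times, with medians of 2.02 log2 units at 6 h and 2.94 at 1.5 h. Between the As(V) times, of 10 tested 3 rose and 3 fell (median 0.24), with library totals 2 rose and 4 fell (median -0.17), and the lower count was 1 without replicate 2 of As(V) at 6 h or without either library of 1.5 h. AOX1A, the alternative oxidase, had 1419 and 1267 FPKM in As(V) at 6 h, against 557 and 583 FPKM in As(V) at 1.5 h, and 26.8 to 36.04 FPKM in mock (1.23 ± 0.11). Suberin genes split, with 4 of 17 higher and 7 lower (median -0.09), and without replicate 1 of As(V) at 6 h 7 were higher. ABCG20, a suberin transporter, had 68.5 and 57.3 FPKM in As(V) at 6 h, against 10.2 and 9.34 FPKM in As(V) at 1.5 h, while MYB93, a factor of the endodermis, had 2.15 and 2.04 FPKM at 6 h, against 14.0 and 13.8 FPKM at 1.5 h.

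A high FPKM does not mean many reads in a short gene. Of the genes not tested, 76 reached 100 FPKM in at least 1 library, and MIR160c had 512 and 486 FPKM in As(V) at 6 h, where each value stands for 2 estimated reads.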
